A study of Mus musculus with 12 samples.

Results

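The genes followed here are 10 transcripts known from monocytes that enter injured tissue and from the macrophages they become: Ly6c2, Plac8, Adgre1, Lyz2, Ms4a7, Arg1, Chil3, Mrc1, Cd163 and F13a1. They were taken by gene name from the deposited count and TPM tables, where TPM is a level scaled for transcript length and library size. All 10 names were found among 57180 genes, and all 10 passed the filter on low counts that left 17820 genes for testing. The tissue was the lesioned thoracic cord of female C57BL/6J wild-type mice with about 0.5 cm of cord to either side, sequenced in bulk 7 days after a clip-compression injury in every group. In OVX8_SCI7 the mice were ovariectomised 8 weeks ahead of the injury, in OVX2_SCI7 2 weeks ahead of it, and SCI7 mice were injured without ovariectomy. Each group has 4 libraries that the labels call biological replicates, and no uninjured or sham-operated cord was analysed here. All 12 labels give an age of 8 weeks without saying at which step, so a difference in age at injury and the effect of ovariectomy cannot be told apart.

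After a spinal cord injury, Ly6C-positive monocytes leave the blood, are drawn into the lesion through the chemokine receptor Ccr2 and become macrophages that lie among the resident microglia and take up myelin and dead cells. Macrophages in mice take on different states, and cytokines that signal through the transcription factor STAT6 induce Arg1, Chil3 and Mrc1. None of the genes belongs to infiltrating cells alone: Adgre1 is also used by microglia, Mrc1 and Cd163 by macrophages of the meninges and vessels, and Chil3 by neutrophils. In bulk tissue, fewer cells of a type and less RNA per cell cannot be told apart, and RNA of infiltrating and resident macrophages cannot be told apart.

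None of the 10 genes passed the test in any of the 3 comparisons between groups (edgeR quasi-likelihood test, Benjamini-Hochberg adjusted p under 0.05 over 17820 genes). In OVX8_SCI7 against SCI7, 27.5% of all genes tested passed, 11.9% higher and 15.6% lower in OVX8_SCI7, so the count of 0 of 10 lies below the background. In OVX2_SCI7 against SCI7 and in OVX8_SCI7 against OVX2_SCI7, 0% of all genes passed. At an unadjusted p under 0.05 the same comparisons held 43.2%, 32.5% and 2.21% of all genes, and of the 10 genes Ly6c2 in the last of them was the one that did so. DESeq2 called 6403, 3701 and 6 genes in these comparisons and limma-voom 4878, 704 and 0, with 0 of the 10 among them. Most of the 10 genes differed widely between libraries of one group: 7 of them were low together in replicate 3 of SCI7 and in replicates 1 and 2 of OVX2_SCI7, whereas the 4 libraries of OVX8_SCI7 lay close together.

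The libraries held 18222729 to 31781695 counts, so that a floor of 3 counts equals 0.0931 to 0.164 CPM (the deposited count scaled to library size), and floors and intervals cover counting error only. The cord was present in every library, with the astrocyte gene Gfap at 3854 to 7932 CPM, the myelin gene Mbp at 7999 to 16981 CPM and the neuronal gene Snap25 at 312 to 2228 CPM. The leukocyte gene Ptprc stood at 36.5 to 137 CPM and the monocyte receptor gene Ccr2 at 4.59 to 19.6 CPM. The neutrophil gene Ly6g and the T cell gene Cd3e did not exceed 0.537 and 0.750 CPM. Ly6g does not stand for the neutrophil genes as a whole. S100a8 stood at 4.59 to 15.7 CPM, and the 12 listed neutrophil genes summed to 108 to 172 CPM. Transcripts of the mitochondrial genome took 2.79 ± 0.515% of counts in OVX8_SCI7, 4.17 ± 2.80% in OVX2_SCI7 and 7.63 ± 1.80% in SCI7 (SD, n = 4 each). The trend with GC content, taken in each library as Spearman's rho across protein-coding genes between GC content and the gene's deviation from its mean over the 12 libraries, averaged 0.582 ± 0.305 in OVX8_SCI7, 0.231 ± 0.431 in OVX2_SCI7 and -0.642 ± 0.161 in SCI7. A two-sided exact permutation test of OVX8_SCI7 against SCI7 gave p = 0.0286 for each of the 2 measures, which is the lowest p that 4 and 4 libraries can give, and 0.0857 once adjusted by Benjamini-Hochberg for 9 tests. The 10 genes have a transcript GC content of 42.6 to 50.1%, against a median of 49.8% over the genes tested.

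Measured per length, Lyz2, which encodes lysozyme, was the most abundant of the set, with a mean of 5826 TPM over the 12 libraries, and it lay above each other member in all 12 libraries. Adgre1, the F4/80 surface receptor, followed at 80.9 TPM and Ms4a7, a membrane protein of macrophages, at 75.7 TPM. Adgre1 was above Ms4a7 in 8 of 12 libraries, so this pair has no fixed order. F13a1 averaged 42.3 TPM, Arg1 33.0 TPM, Plac8 19.7 TPM, Chil3 17.3 TPM and Mrc1 15.2 TPM. Plac8 exceeded Chil3 in 7 of 12 libraries and Chil3 exceeded Mrc1 in 7 of 12, and these neighbours did not differ beyond their spread. Ly6c2 at 7.66 TPM and Cd163 at 4.42 TPM were the least abundant, Ly6c2 being above Cd163 in 10 of 12 libraries. By group, Lyz2 averaged 7933 ± 2217 TPM in OVX8_SCI7, 6005 ± 5387 TPM in OVX2_SCI7 and 3542 ± 2216 TPM in SCI7 (SD, n = 4 each).

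Promoter windows were available for 8 of the 10 genes (RefSeq, GRCm38.p6, 250 bases before to 50 after a start site, up to 2 windows per gene), and Arg1 and Adgre1 were not matched. They were searched on both strands for AGGAAGT, a core bound by the myeloid factor PU.1, which was found in 6 of their 12 windows (5 of the 8 genes), against 9.35% of 32851 windows of all genes. The 2 windows of Ly6c2 overlap and hold the same 2 matches, so this promoter counts 2 times in the 6 and in the 12. The palindromic STAT6 pattern was found in 2 of the 12 windows, 1 each of Ms4a7 and Plac8, and in 6.95% of all windows. The C/EBP pattern TTGCNNAA was found in 1 of the 12 windows, against 10.8% of all windows. The paired GAAA pattern of interferon regulatory factors was found in 0 of the 12, against 3.44% of all windows, which says only that these letters are not in these windows. The 200 bases before a start site are shown for Lyz2 and Ms4a7, whose levels moved most alike, for F13a1, which shared their 3 low libraries, and for Chil3, which was not low in replicate 3 of SCI7. All 4 lie on the minus strand and read 5′ to 3′, at chr10:117282273-117282472 for Lyz2, chr19:11336147-11336346 for Ms4a7, chr13:37049214-37049413 for F13a1 and chr3:106167565-106167764 for Chil3. Capitals mark the PU.1 core in Lyz2, F13a1 and Chil3 (as ACTTCCT, its reverse complement, in Lyz2 and Chil3) and the STAT6 pattern in Ms4a7. Ms4a7 and F13a1 have 2 windows each, of which the one with a match is shown. The other window of each held 0 matches of any of these patterns.
Lyz2: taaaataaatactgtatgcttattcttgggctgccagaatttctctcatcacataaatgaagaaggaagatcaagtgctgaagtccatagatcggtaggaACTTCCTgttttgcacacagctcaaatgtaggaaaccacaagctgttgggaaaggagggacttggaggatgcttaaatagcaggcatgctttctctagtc
Ms4a7: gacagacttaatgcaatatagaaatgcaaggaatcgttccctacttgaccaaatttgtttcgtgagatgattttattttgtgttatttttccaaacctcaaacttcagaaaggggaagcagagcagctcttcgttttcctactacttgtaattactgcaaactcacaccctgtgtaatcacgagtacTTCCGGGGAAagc
F13a1: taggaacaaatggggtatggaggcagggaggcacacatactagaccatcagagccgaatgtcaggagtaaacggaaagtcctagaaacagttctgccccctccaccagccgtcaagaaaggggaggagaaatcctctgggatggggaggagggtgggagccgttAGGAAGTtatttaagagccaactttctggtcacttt
Chil3: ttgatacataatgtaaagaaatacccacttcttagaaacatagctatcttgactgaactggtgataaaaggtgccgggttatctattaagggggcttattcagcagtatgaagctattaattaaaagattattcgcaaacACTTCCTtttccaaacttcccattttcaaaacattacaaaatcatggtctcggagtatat

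Ly6c2 encodes a surface antigen of inflammatory monocytes and was low in every library. In replicates 1 to 4, the order used for all values by library, Ly6c2 stood at 2.34, 3.79, 2.10 and 2.92 CPM in OVX8_SCI7, at 4.61, 3.90, 3.59 and 6.74 CPM in OVX2_SCI7 and at 3.96, 2.85, 3.98 and 3.58 CPM in SCI7. Replicate 4 of OVX2_SCI7 was the highest, replicate 3 of OVX8_SCI7 the lowest, and the groups overlapped in each comparison. The log2 fold change of OVX8_SCI7 over OVX2_SCI7 was -0.75 (SE 0.26, 95% interval -1.31 to -0.19, unadjusted p = 0.0127, edgeR adjusted p = 0.999), which did not pass. It was -0.36 (SE 0.26) for OVX8_SCI7 over SCI7 and 0.39 (SE 0.26) for OVX2_SCI7 over SCI7, with adjusted p of 0.296 and 0.304 from the same fit. Ly6c2 shares reads with its neighbour Ly6c1, a gene also used by endothelium: Ly6c1 took 85.0 to 94.2% of the counts of the pair, and the count of Ly6c2 was whole (within 0.02) in 0 of 12 libraries before rounding. The estimated counts of the pair summed to a whole number (within 0.02) in 8 of 12 libraries, so reads may also be shared with genes outside the pair. How reads were split is therefore uncertain for this gene.

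Plac8, a cysteine-rich protein of monocytes and other leukocytes, stood at 6.83, 6.67, 4.60 and 7.67 CPM in OVX8_SCI7, at 1.01, 2.13, 14.6 and 13.2 CPM in OVX2_SCI7 and at 4.86, 3.33, 1.04 and 5.65 CPM in SCI7. OVX2_SCI7 held both the highest and the lowest values, and replicate 3 of SCI7 was about as low as replicate 1 of OVX2_SCI7. It had a log2 fold change of 0.79 (SE 0.71, edgeR adjusted p = 0.411) for OVX8_SCI7 over SCI7, 1.05 (SE 0.72, adjusted p = 0.318) for OVX2_SCI7 over SCI7 and -0.26 (SE 0.70) for OVX8_SCI7 over OVX2_SCI7. With replicates 1 and 2 of OVX2_SCI7 left out, the log2 fold change of OVX2_SCI7 over SCI7 was 1.90 with an adjusted p of 0.00921, beside 38.8% of all genes passing. These are the low libraries of that group for Plac8 while the low replicate 3 of SCI7 was kept, so the choice of libraries fixed the shift and it supports no difference.

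Adgre1, the general macrophage marker of the set, stood at 157, 121, 137 and 188 CPM in OVX8_SCI7, at 50.4, 68.3, 173 and 189.9 CPM in OVX2_SCI7 and at 109.5, 131, 32.4 and 173 CPM in SCI7. The lowest 3 libraries were replicate 3 of SCI7 and replicates 1 and 2 of OVX2_SCI7, and the other 9 lay within 109.5 to 189.9 CPM. Its log2 fold change was 0.44 (SE 0.49, edgeR adjusted p = 0.511) for OVX8_SCI7 over SCI7, 0.11 (SE 0.49, adjusted p = 0.890) for OVX2_SCI7 over SCI7 and 0.33 (SE 0.49) for OVX8_SCI7 over OVX2_SCI7.

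Lyz2 stood at 5899.6, 3865, 3838 and 6627 CPM in OVX8_SCI7, at 804, 1028, 9102 and 6315 CPM in OVX2_SCI7 and at 2595, 2977, 308 and 3378 CPM in SCI7. All 4 OVX8_SCI7 libraries lay above all 4 SCI7 libraries, while OVX2_SCI7 held the highest library of the 12 and replicate 3 of SCI7 was the lowest. In replicate 3 of OVX2_SCI7, Lyz2 alone took 0.882% of all counts (95% exact Clopper-Pearson interval 0.878 to 0.887%), against 0.0310% (0.0302 to 0.0318%) in replicate 3 of SCI7, a range of 29.6-fold in CPM. The log2 fold change of OVX8_SCI7 over SCI7 was 1.13 (SE 0.79, 95% interval -0.59 to 2.84, edgeR adjusted p = 0.287), that of OVX2_SCI7 over SCI7 was 0.90 (SE 0.78, adjusted p = 0.435) and that of OVX8_SCI7 over OVX2_SCI7 was 0.23 (SE 0.78). Lyz1, its near-identical neighbour, held 0.0542 to 0.195% of the counts of the pair, and their estimated counts summed to a whole number (within 0.02) in 12 of 12 libraries.

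Ms4a7 followed Lyz2 closely. It stood at 77.0, 46.8, 47.7 and 81.0 CPM in OVX8_SCI7, at 11.0, 15.4, 109.7 and 85.1 CPM in OVX2_SCI7 and at 36.2, 38.7, 5.12 and 38.6 CPM in SCI7. Again each OVX8_SCI7 library exceeded each SCI7 library, and replicate 3 of SCI7 was far below the other 3 of its group. The log2 fold change was 1.09 (SE 0.72, 95% interval -0.48 to 2.66, edgeR adjusted p = 0.261) for OVX8_SCI7 over SCI7, 0.90 (SE 0.72, adjusted p = 0.394) for OVX2_SCI7 over SCI7 and 0.19 (SE 0.71) for OVX8_SCI7 over OVX2_SCI7. With replicates 1 and 2 of OVX2_SCI7 left out, the value for OVX2_SCI7 over SCI7 was 1.72 with an adjusted p of 0.0327, beside 38.8% of all genes passing; here too the low libraries of only one group were removed, which fixed the shift. Without replicate 3 of SCI7, the log2 fold change of OVX8_SCI7 over SCI7 was 0.73 for Ms4a7 and 0.75 for Lyz2.

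**Figure D1:**
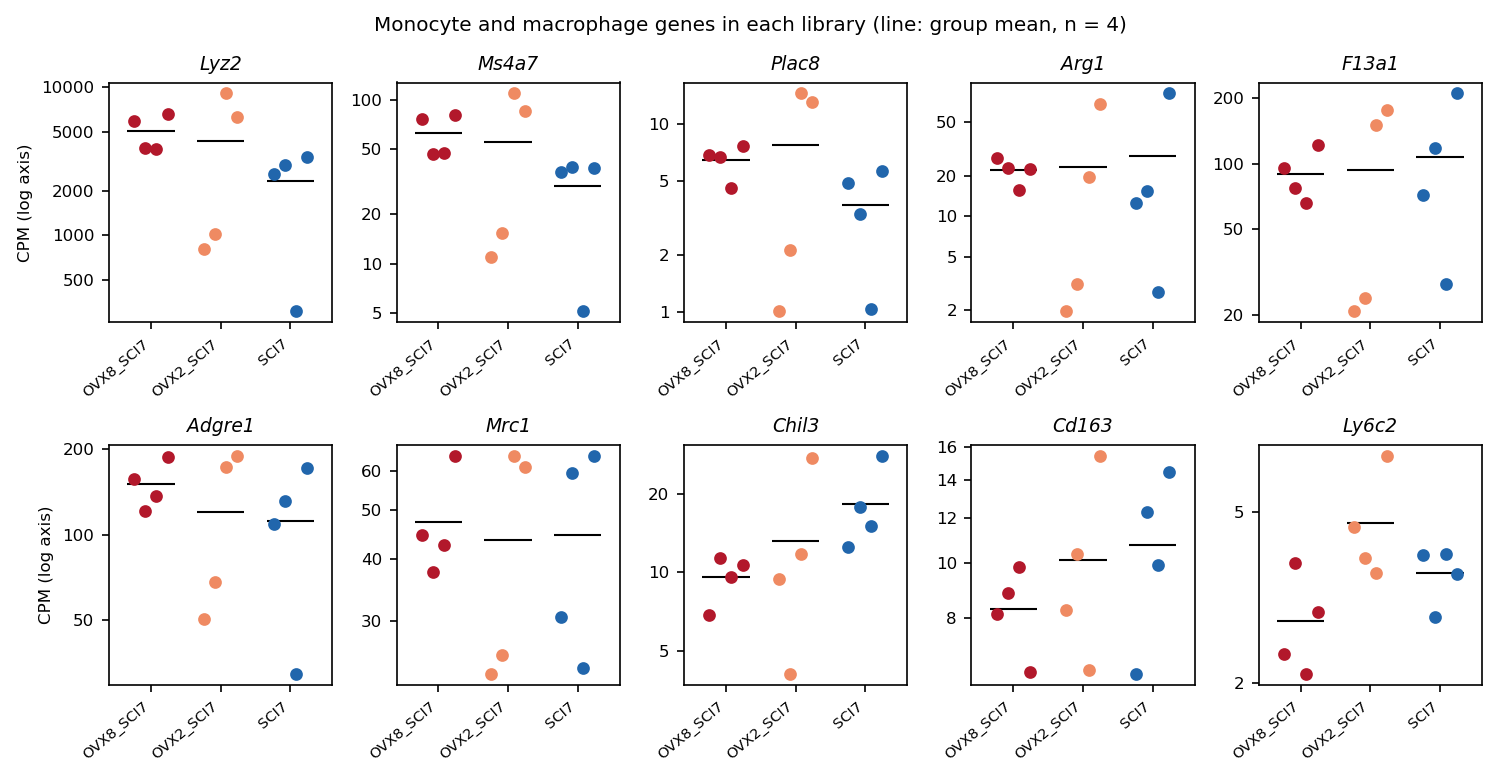
CPM of each gene on a log axis in each library (points, replicates 1 to 4 from left to right) of OVX8_SCI7, OVX2_SCI7 and SCI7, with the group mean as a line. The OVX8_SCI7 points of Lyz2 and Ms4a7 lie above and those of Chil3 below all SCI7 points, and replicates 1 and 2 of OVX2_SCI7 and replicate 3 of SCI7 are low in most panels.

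Arg1, the arginase of alternatively activated macrophages, which splits arginine into ornithine and urea, had the widest range of the set. It stood at 27.1, 22.9, 15.6 and 22.3 CPM in OVX8_SCI7, at 1.96, 3.16, 19.6 and 68.8 CPM in OVX2_SCI7 and at 12.5, 15.4, 2.73 and 82.1 CPM in SCI7, a 41.9-fold range over the 12 libraries. Replicate 4 was by far the highest library in both OVX2_SCI7 and SCI7, whereas OVX8_SCI7 stayed within 1.74-fold. Arg1 had a log2 fold change of -0.36 (SE 1.03, 95% interval -2.61 to 1.89, edgeR adjusted p = 0.813) for OVX8_SCI7 over SCI7, -0.27 (SE 1.03) for OVX2_SCI7 over SCI7 and -0.09 (SE 1.03) for OVX8_SCI7 over OVX2_SCI7. Without replicate 4 of SCI7 the value for OVX8_SCI7 over SCI7 turned to 1.11 and that for OVX2_SCI7 over SCI7 to 1.20, and without replicate 4 of OVX2_SCI7 the value for OVX8_SCI7 over OVX2_SCI7 turned to 1.41. None of these passed, so no direction can be given for Arg1.

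Chil3, which encodes the secreted chitinase-like protein Ym1, was the member with the smallest p in OVX8_SCI7 against SCI7. It stood at 6.83, 11.3, 9.59 and 10.6 CPM in OVX8_SCI7, at 9.44, 4.08, 11.7 and 27.3 CPM in OVX2_SCI7 and at 12.5, 17.8, 15.0 and 27.9 CPM in SCI7. All 4 OVX8_SCI7 libraries lay below all 4 SCI7 libraries, and replicate 3 of SCI7 was not among the low ones. The log2 fold change of OVX8_SCI7 over SCI7 was -0.93 (SE 0.46, 95% interval -1.93 to 0.07, unadjusted p = 0.0646, edgeR adjusted p = 0.139), and those of OVX2_SCI7 over SCI7 and OVX8_SCI7 over OVX2_SCI7 were -0.48 (SE 0.45) and -0.45 (SE 0.46). It passed as lower in OVX8_SCI7 with the 8 libraries of that comparison fitted alone (-0.94, adjusted p = 0.0171, beside 43% of all genes) and with replicates 1 and 2 of OVX2_SCI7 left out (-0.92, adjusted p = 0.0347, beside 41.9%). With an offset for GC content and length it was -0.61, and 0% of all genes passed. Its neighbour Chil4 took at most 0.641% of the counts of the pair.

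Mrc1, the mannose receptor CD206, stood at 44.6, 37.6, 42.7 and 64.2 CPM in OVX8_SCI7, at 23.5, 25.7, 64.2 and 60.9 CPM in OVX2_SCI7 and at 30.6, 59.2, 24.2 and 64.1 CPM in SCI7. The highest values of the 3 groups were nearly equal, and the lowest were again replicates 1 and 2 of OVX2_SCI7 and replicate 3 of SCI7. Fitted log2 fold changes were 0.08 (SE 0.39, 95% interval -0.77 to 0.93, edgeR adjusted p = 0.886) for OVX8_SCI7 over SCI7, -0.03 (SE 0.39) for OVX2_SCI7 over SCI7 and 0.12 (SE 0.39) for OVX8_SCI7 over OVX2_SCI7.

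Cd163, the receptor through which macrophages take up haemoglobin bound to haptoglobin, stood at 8.15, 8.85, 9.84 and 6.42 CPM in OVX8_SCI7, at 8.27, 10.4, 6.49 and 15.4 CPM in OVX2_SCI7 and at 6.39, 12.3, 9.92 and 14.5 CPM in SCI7. It had the narrowest range of the set over the 12 libraries, 2.42-fold, and the groups overlapped throughout. Its log2 fold change was -0.37 (SE 0.30, 95% interval -1.02 to 0.27, edgeR adjusted p = 0.350) for OVX8_SCI7 over SCI7, -0.09 (SE 0.30) for OVX2_SCI7 over SCI7 and -0.29 (SE 0.30) for OVX8_SCI7 over OVX2_SCI7.

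F13a1 encodes the A subunit of coagulation factor XIII, which monocytes and macrophages also make. It stood at 94.97, 76.9, 65.8 and 122 CPM in OVX8_SCI7, at 20.8, 23.9, 151 and 177 CPM in OVX2_SCI7 and at 71.5, 118, 27.8 and 211 CPM in SCI7. Replicate 4 of SCI7 was the highest library and replicate 1 of OVX2_SCI7 the lowest, with OVX8_SCI7 in between. For F13a1 the log2 fold change was -0.25 (SE 0.70, 95% interval -1.78 to 1.27, edgeR adjusted p = 0.805) for OVX8_SCI7 over SCI7, -0.20 (SE 0.70) for OVX2_SCI7 over SCI7 and -0.05 (SE 0.70) for OVX8_SCI7 over OVX2_SCI7. Without replicate 4 of SCI7 the values over SCI7 turned to 0.31 for OVX8_SCI7 and 0.36 for OVX2_SCI7.

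**Figure D2:**
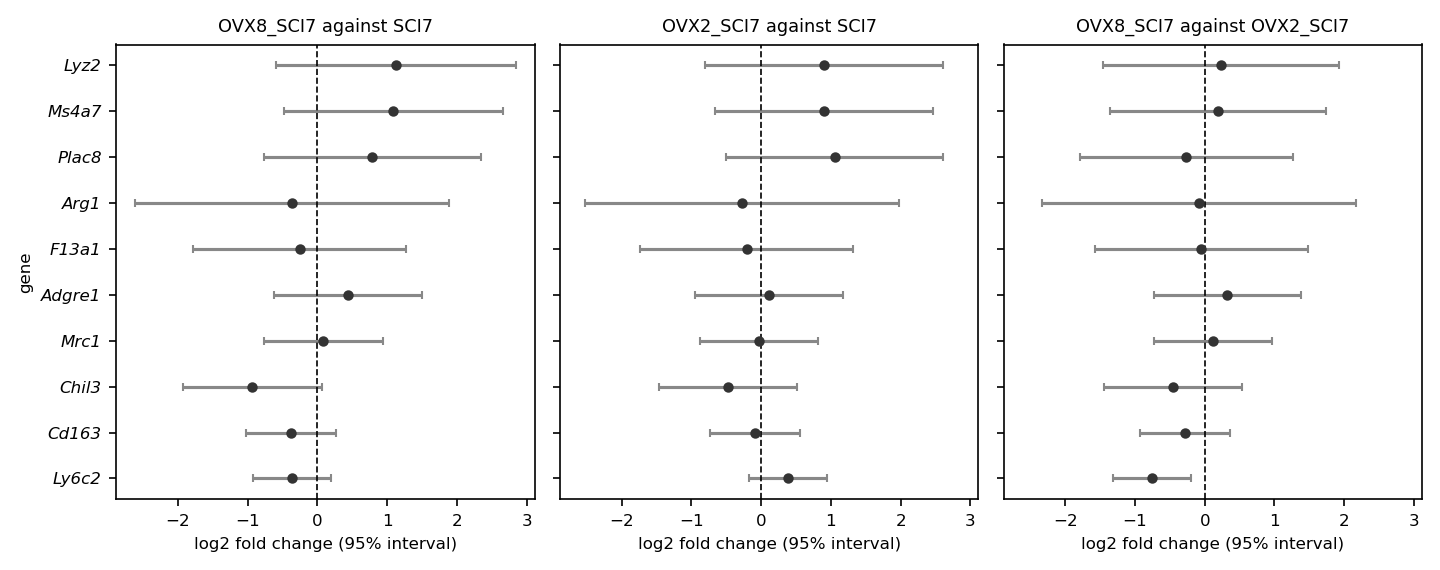
Log2 fold change of each gene from edgeR (points) with its 95% interval (bars) in the 3 comparisons; the dashed line marks no difference. Only the interval of Ly6c2 in OVX8_SCI7 against OVX2_SCI7, -1.31 to -0.19, leaves out 0, and the intervals are not adjusted for the number of genes tested.

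Counted together, 3 of the 10 genes had no overlap between the libraries of OVX8_SCI7 and SCI7, against 39.1% of all genes tested. Lyz2 and Ms4a7 were the higher ones in OVX8_SCI7 (19.6% of all genes) and Chil3 the lower one (19.6%). In OVX2_SCI7 against SCI7 it was 0 of 10 (12.4% of all genes) and in OVX8_SCI7 against OVX2_SCI7 0 of 10 (1.32%). Over the 10 genes the log2 fold change had a median of -0.08 in OVX8_SCI7 over SCI7, 0.04 in OVX2_SCI7 over SCI7 and -0.07 in OVX8_SCI7 over OVX2_SCI7. The medians over all genes tested were 0.01, 0.04 and -0.03. The first and second comparisons share the SCI7 libraries.

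Libraries of one group differed by very different amounts. In OVX8_SCI7, the highest library of each of the 10 genes was 1.53 to 1.86 times the lowest, and 0 of 10 exceeded 5-fold, against 0.825% of the 16004 tested genes that averaged 1 CPM or more. In OVX2_SCI7, 6 of 10 exceeded 5-fold, namely Lyz2, Ms4a7, Plac8, Arg1, F13a1 and Chil3, against 8.29% of those genes. In SCI7, 6 of 10 did so too, with Adgre1 in place of Chil3, against 3.84%. In both groups Arg1 had the widest spread, 35.1-fold in OVX2_SCI7 and 30.1-fold in SCI7. Ly6c2, Cd163 and Mrc1 stayed below 3-fold in each group.

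**Figure D3:**
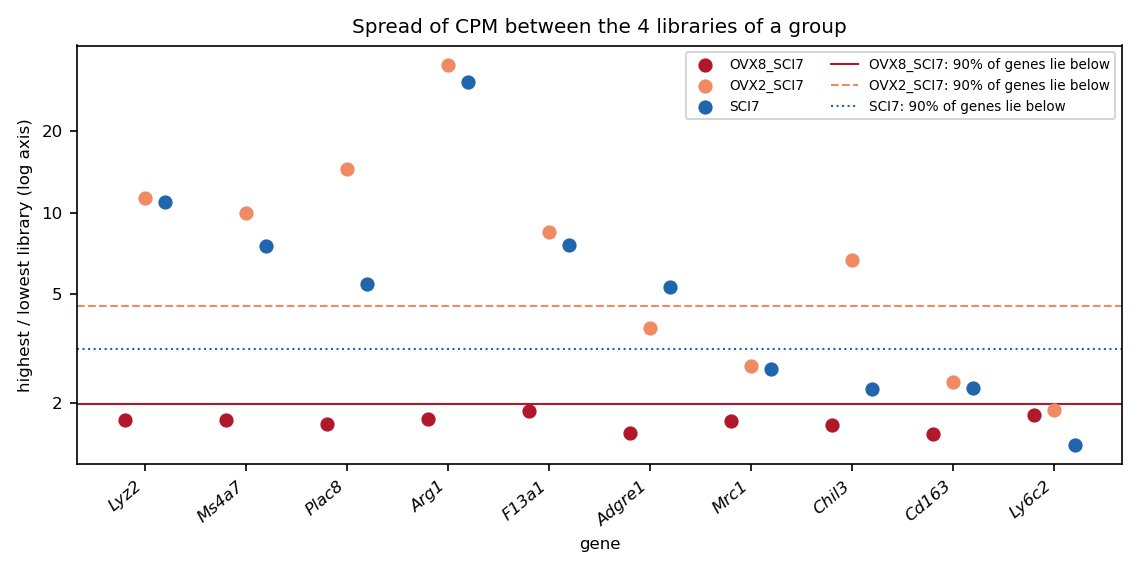
Ratio of the highest to the lowest CPM among the 4 libraries of a group (log axis) for each gene, by group; the lines mark the ratio below which 90% of 16004 genes lie in that group. All 10 OVX8_SCI7 points lie below the OVX8_SCI7 line, whereas Arg1 reaches 35.1 in OVX2_SCI7 and 30.1 in SCI7.

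The same libraries carried this spread across genes. Replicate 3 of SCI7 was among the 3 lowest of the 12 libraries for 7 of the 10 genes, and replicates 1 and 2 of OVX2_SCI7 were so for 8 each. At the other end, replicate 4 of OVX2_SCI7 was among the 3 highest for 9 genes, replicate 3 of OVX2_SCI7 for 6, and replicate 4 of OVX8_SCI7 and of SCI7 for 5 each. Summed over the 10 genes, the low libraries held 935, 1185 and 429.8 CPM, in the order replicate 1 and replicate 2 of OVX2_SCI7 and replicate 3 of SCI7, and the other 9 held 2883 to 9656 CPM, most of it Lyz2.

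Some other markers moved with these libraries. The 6 pan-leukocyte and pan-myeloid genes, Tyrobp and Ptprc among them, summed to 421, 568 and 226 CPM in the same 3 libraries and to 661 to 1536 CPM in the other 9. The 7 fibroblast and meningeal genes summed to 914, 2322 and 1090.1 CPM there and to 4864 to 27724 CPM elsewhere. Snap25, a neuronal gene, stood at 1953, 996 and 2228 CPM there, and the other 9 libraries held 312 to 1549 CPM. Replicate 2 of OVX2_SCI7 thus lay within the range of the others. The 8 cord genes, Snap25 among them, summed to 38881, 34968 and 28302 CPM in the same 3 libraries. Replicate 1 of SCI7 held 33129.5 CPM, so this sum did not set replicate 3 of SCI7 apart. Over all 12 libraries, the 8 cord genes ranged from 22358 to 28586 CPM in OVX8_SCI7, from 16074 to 38881 CPM in OVX2_SCI7 and from 23639 to 33129.5 CPM in SCI7. How much lesion and how much spared cord each piece held is not given in the labels, and its part in these values was not tested.

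**Figure D4:**
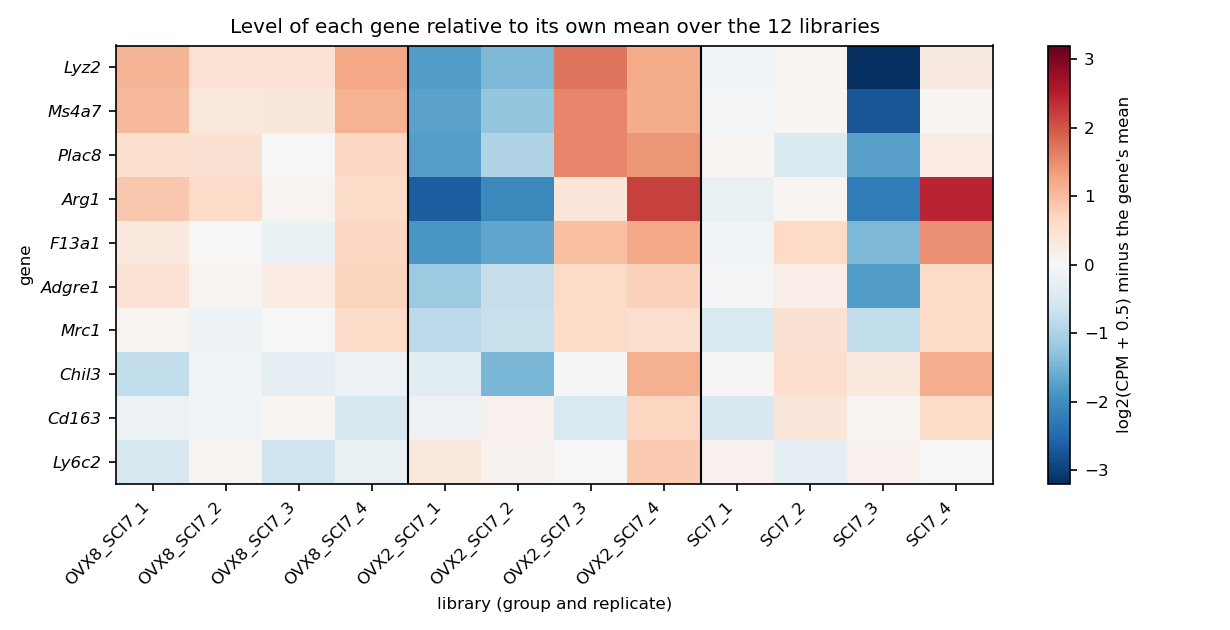
Level of each gene (rows) in each library (columns) as log2(CPM + 0.5) minus the mean of the gene over the 12 libraries, with black lines between OVX8_SCI7, OVX2_SCI7 and SCI7. Replicates 1 and 2 of OVX2_SCI7 and replicate 3 of SCI7 are blue in the upper 7 rows, and Chil3, Cd163 and Ly6c2 do not share the whole of this pattern.

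The genes were set side by side over the 12 libraries by the root mean square difference between genes, each taken on log2(CPM + 0.5) after subtracting its own mean. Lyz2 and Ms4a7 were the closest pair of the set at 0.17, against a deviation of 1.38 for Lyz2 about its own mean. Mrc1 and Adgre1 differed by 0.38, Ms4a7 and Plac8 by 0.41, and Ly6c2 and Cd163 by 0.45. Ly6c2 and Cd163 varied little, with deviations of 0.375 and 0.394 about their own means. Their distance exceeds both, so it does not show that they moved alike. The widest distance was between Ly6c2 and Arg1 at 1.60, followed by that between Ly6c2 and Lyz2 at 1.51. All genes were measured in the same 12 libraries, which differ in depth, in the trend with GC content and in the mitochondrial share. How far such differences, or differences in tissue makeup, enter the distances was not tested.

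Among 14331 tested genes with a symbol that averaged 1 CPM or more, predicted genes and pseudogenes left out, the 3 most like each member over the 12 libraries were found by the same measure. Those of Lyz2 were Ms4a7 (0.17), Cd300a (0.22), an inhibitory receptor of myeloid cells, and Cd5l (0.26), a secreted macrophage protein. Those of F13a1 were Bst1 (0.22), Lilrb4b (0.30) and Lilrb4a (0.30), and those of Adgre1 were Rbm47 (0.13), Lcp1 (0.14) and Casp8 (0.14). Mrc1 was closest to the cholesterol exporter gene Abca1 (0.12), then to Sntb2 (0.16) and Ripk1 (0.17), and Plac8 to Napsa (0.20), Emp3 (0.23) and Ifi30 (0.24). Beside Lyz2, Ms4a7 was closest to Tmem106a (0.23) and Cd300a (0.23).

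The genes nearest to Arg1, whose own deviation was 1.54, were the haem oxygenase gene Hmox1 (0.48), the chemokine gene Pf4 (0.51) and Spp1, the gene for osteopontin (0.56). Hmox1 stood at 267, 270.5, 129 and 261 CPM in OVX8_SCI7, at 27.6, 46.1, 130.5 and 328 CPM in OVX2_SCI7 and at 179, 221, 35.5 and 530.2 CPM in SCI7, and so was highest in the same library as Arg1. Chil3 was nearest to S100a8 (0.37), one of the listed neutrophil genes, then to Rad54b (0.44) and to Lyve1 (0.45), a receptor of lymphatic endothelium and some border macrophages. Cd163 was nearest to Igsf9b (0.29), A2m (0.29) and Hrk (0.30), and Ly6c2 to Ccdc103 (0.23), Cfap206 (0.23) and Tmem177 (0.25). The own deviations of Cd163 and Ly6c2 were 0.394 and 0.375, so these small distances say little about a shared pattern.

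The makeup of the set was described by the log2 ratio of each gene's TPM to that of Adgre1 in the same library. For Lyz2 it averaged 6.29 ± 0.22 in OVX8_SCI7, 5.91 ± 0.83 in OVX2_SCI7 and 5.49 ± 0.61 in SCI7 (SD, n = 4 each). For Ms4a7 it averaged 0.01 ± 0.26 in OVX8_SCI7, -0.30 ± 0.80 in OVX2_SCI7 and -0.72 ± 0.52 in SCI7. Lyz2 and Ms4a7 thus stood lower against Adgre1 in the low libraries, at 4.59 and -1.38 in replicate 3 of SCI7.

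The ratio of Chil3 to Adgre1 averaged -3.02 ± 0.39 in OVX8_SCI7, -2.33 ± 0.81 in OVX2_SCI7 and -1.36 ± 0.92 in SCI7. In the libraries low for Adgre1 it was mixed, at -1.38 and -3.07 in replicates 1 and 2 of OVX2_SCI7 and -0.02 in replicate 3 of SCI7. That of Cd163 averaged -4.81 ± 0.47 in OVX8_SCI7, -3.95 ± 1.06 in OVX2_SCI7 and -3.53 ± 1.06 in SCI7, with -2.93 and -3.27 in replicates 1 and 2 of OVX2_SCI7 and -1.99 in replicate 3 of SCI7, the highest 3 of the 12. In these 3 libraries Cd163 itself stood at 4.13, 5.10 and 5.11 TPM, within its range of 2.53 to 7.12 TPM over all libraries. Adgre1, by which the ratio divides, was lowest in the same 3, so the high ratios there follow from low Adgre1. The ratio of F13a1 averaged -1.34 ± 0.18 in OVX8_SCI7, -1.34 ± 0.65 in OVX2_SCI7 and -0.57 ± 0.35 in SCI7. These ratios were not tested.

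Paralogues of the members were followed because reads of similar genes can be exchanged. Of 10 listed, 9 were matched and 8 passed the filter, and 0 of 8 passed the test in OVX8_SCI7 against SCI7 (median log2 fold change 0.18, against 0.01 over all genes). Ms4a6b, Ms4a6c and Ms4a6d, relatives of Ms4a7, had log2 fold changes of 0.28 (SE 0.45), 0.18 (SE 0.55) and 0.18 (SE 0.60) there. Mrc2, a relative of Mrc1 known from fibroblasts, stood at 194 ± 34.3 CPM in OVX8_SCI7 and 73.5 ± 41.4 CPM in SCI7 (SD, n = 4 each), a log2 fold change of 1.40 (SE 0.73, edgeR adjusted p = 0.160), and passed with the 8 libraries fitted alone (1.39, adjusted p = 0.0199), where 43% of all genes did.

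Genes of monocyte recruitment and identity did not pass either. Of 16 genes, 0 passed in OVX8_SCI7 against SCI7, with a median log2 fold change of 0.19 and values above 0 for 11. Ccr2 stood at 10.3 ± 2.87 CPM in OVX8_SCI7, 10.6 ± 6.61 CPM in OVX2_SCI7 and 11.5 ± 3.72 CPM in SCI7 (SD, n = 4 each). Nr4a1 and Spn, genes of patrolling monocytes, had log2 fold changes of 1.13 (SE 0.42, edgeR adjusted p = 0.0618) and 1.09 (SE 0.50, adjusted p = 0.114), and both passed with the 8 libraries fitted alone (adjusted p of 0.0376 and 0.0188), where 43% of all genes did. Fn1, the gene for fibronectin and the most abundant of the list, had 0.60 (SE 0.66).

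Among 11 genes of myeloid growth factors and regulators, 3 passed as higher and 0 as lower in OVX8_SCI7 than in SCI7, with a median log2 fold change of 1.07. Of all genes, 11.9% passed as higher and 27.5% in either direction. Of the 11 genes, 10 had a value above 0. For 8 of the 11, all OVX8_SCI7 libraries lay above all SCI7 libraries, against 19.6% of all genes. No list was tested as a set, so these counts are no result about the list. Counts of the lists that follow stand beside the same backgrounds, 11.9% higher and 15.6% lower. Csf2ra, a receptor subunit for the growth factor GM-CSF, stood at 86.8 ± 15.5 CPM in OVX8_SCI7 and 27.9 ± 13.1 CPM in SCI7, a log2 fold change of 1.64 (SE 0.51, edgeR adjusted p = 0.0352). Spi1, the gene for PU.1, stood at 62.7 ± 7.33 CPM in OVX8_SCI7 and 22.4 ± 9.48 CPM in SCI7, a log2 fold change of 1.49 (SE 0.48, adjusted p = 0.0399). The third was Il34, a ligand of the CSF1 receptor, with 0.58 (SE 0.19, adjusted p = 0.0424), named after its values were seen.

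Of 15 genes of alternative activation, 8 were tested, 1 passed as higher in OVX8_SCI7 than in SCI7 and 0 as lower, with a median log2 fold change of 0.81. The one that passed was Alox15, a lipoxygenase, at 1.94 ± 0.604 CPM in OVX8_SCI7 and 0.486 ± 0.121 CPM in SCI7 (log2 fold change 1.98, SE 0.40, edgeR adjusted p = 0.0143). Stat6, which relays the cytokine signal to this program, had 0.85 (SE 0.39, adjusted p = 0.117) and passed with the 8 libraries fitted alone (adjusted p = 0.0283, beside 43% of all genes). The other 7 had too few counts to be tested. Of 12 genes of classical activation, 10 were tested and 0 passed, with a median of 0.48, and Cd86 had -0.47 (SE 0.25) and Cxcl9 0.85 (SE 0.50).

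Arg1 belongs to the pathway from arginine to polyamines, of which 12 further genes were listed. In OVX8_SCI7 against SCI7, 1 passed as higher and 2 as lower, with a median log2 fold change of -0.07. Asl, which makes arginine, was higher with 0.94 (SE 0.23, edgeR adjusted p = 0.0163), and Azin1, an inhibitor of the antizyme that degrades ornithine decarboxylase, was lower with -0.81 (SE 0.19, adjusted p = 0.0149). The other that was lower was Sms, spermine synthase, with -1.12 (SE 0.37, adjusted p = 0.0443), named after its values were seen. Of 11 genes of haemoglobin and haem handling, 10 were tested, 2 passed as higher and 0 as lower. They were Lrp1, a receptor for haem bound to haemopexin, with 1.13 (SE 0.33, adjusted p = 0.0275) and Blvrb, biliverdin reductase B, with 1.26 (SE 0.41, adjusted p = 0.0411).

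Markers of other macrophages were mixed. Of 8 genes of border-associated macrophages, Igfbp4 passed as higher in OVX8_SCI7 than in SCI7 with a log2 fold change of 1.10 (SE 0.33, edgeR adjusted p = 0.0322) and Lyve1 as lower with -0.78 (SE 0.23, adjusted p = 0.0293). Of 12 genes of lipid-laden lesion macrophages, 12 had a value above 0 (median 1.21). For 8 of the 12, all OVX8_SCI7 libraries lay above all SCI7 libraries, against 19.6% of all genes. Of these 12 genes, 2 passed as higher, Apoe with 1.77 (SE 0.52, adjusted p = 0.0291) and Trem2 with 1.66 (SE 0.57, adjusted p = 0.0499). Of 9 tested genes of homeostatic microglia, 1 passed as higher, Tmem119 with 1.07 (SE 0.30, adjusted p = 0.0241), and 3 as lower. These were P2ry12 with -1.14 (SE 0.32, adjusted p = 0.0251) and, named after their values were seen, Gpr34 with -0.85 (SE 0.28) and P2ry13 with -0.46 (SE 0.16).

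Of the marker lists of other cells, 1 of 11 tested neutrophil genes passed as higher in OVX8_SCI7 than in SCI7, Csf3r with 0.79 (SE 0.21, edgeR adjusted p = 0.0218), and the 12 listed genes summed to 117 to 172 CPM in OVX8_SCI7, 108 to 164 CPM in OVX2_SCI7 and 128 to 161 CPM in SCI7. The 11 tested neutrophil genes had a median log2 fold change of -0.01, and 5 of them lay above 0. Cxcr2, with the second smallest p, stood lower in OVX8_SCI7 and did not pass. It averaged 0.615 ± 0.215 TPM there and 1.535 ± 0.521 TPM in SCI7 (SD, n = 4 each). S100a8, the gene nearest to Chil3, had a log2 fold change of -0.65 (SE 0.31, adjusted p = 0.130). Of 9 lymphocyte genes 3 were tested and Cd8a passed as higher, but with all 4 SCI7 libraries at no more than 3 counts no fold change is stated, and the list summed to 4.75 to 6.04 CPM in OVX8_SCI7, 3.87 to 11.3 CPM in OVX2_SCI7 and 1.20 to 2.73 CPM in SCI7. Of 5 red blood cell genes, 6 tested dendritic cell genes, 7 fibroblast genes, 6 pan-leukocyte genes and 8 cord genes, 0 passed in either direction, with medians of -0.81, 0.69, 0.46, 0.91 and -0.76. Of the pan-leukocyte genes, Aif1 and Cd52 passed as higher in OVX8_SCI7 with DESeq2 (adjusted p of 0.0471 and 0.0473), in both TPM fits and with the 8 libraries fitted alone. Of 17820 genes, 6403 passed with DESeq2 and 2973 and 2850 in the TPM fits with 1 and 0.1 added. With the 8 libraries alone, 43% of all genes did. Whether these cells took part in the values of the 10 genes was not tested.

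**Figure D5:**
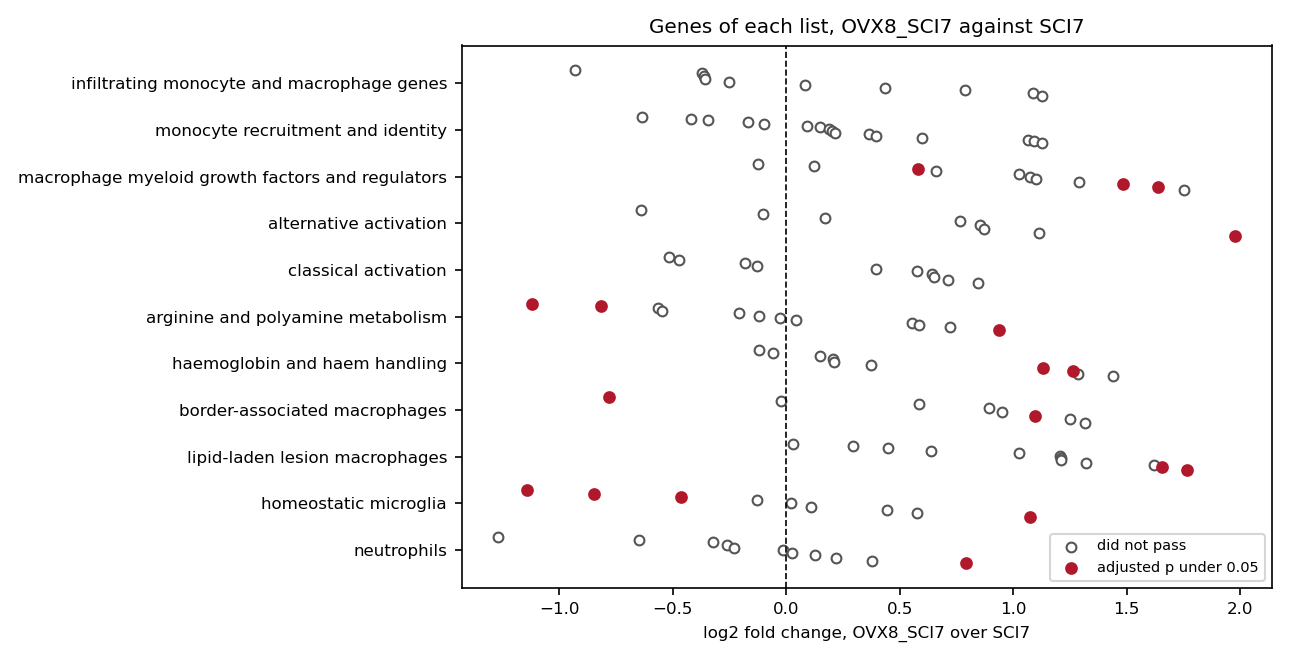
Log2 fold change of OVX8_SCI7 over SCI7 for every tested gene of 11 lists (rows), with genes at an adjusted p under 0.05 filled in red. None of the 10 infiltrating monocyte and macrophage genes is filled, and those filled elsewhere run from -1.14 for P2ry12 to 1.98 for Alox15.

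The 18 calls given with a fold change for these lists rest on a comparison in which single libraries weigh heavily. Without replicate 2 of OVX8_SCI7, 0 of 18130 genes passed and 18 of the 18 calls ended, although 6068 genes had an unadjusted p under 0.05. With the offset for GC content and length, 0 of 17820 genes passed (2714 at an unadjusted p under 0.05), and again all 18 calls ended, with Il34, Azin1 and Gpr34 changing sign. Leaving out 1 library ended 14 calls without replicate 1 and 16 without replicate 3 of OVX8_SCI7, 14 without replicate 1, 15 without replicate 2 and 11 without replicate 3 of SCI7, and 0 to 7 for each of the other 6 libraries. In OVX2_SCI7 against SCI7 and OVX8_SCI7 against OVX2_SCI7, 0 genes of any list passed.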

How the data were processed

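Total RNA of 12 injured mouse cords was sequenced in bulk, 4 libraries in each of 3 groups. Per the submitters' processing notes, the authors used fastp 0.23.4, HISAT2 2.2.1 and RSEM 1.3.3 with the mouse build GRCm39, and listed DESeq2 1.42.0, edgeR and limma; the annotation release and the strand setting are not given in the sources used here. The deposited tables hold RSEM estimated counts per gene, not scaled for depth, and TPM and FPKM values that the authors scaled for length and depth. Their 9 group-mean columns were not used. Samples were grouped by the labels, and replicates of a group differed by 12.1 to 360.2 in chi-square per gene, so none was a copy of another.

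Counts were rounded to whole numbers and fitted for all 12 libraries in 1 model with group as the only term (R 4.3.3, edgeR 4.0.16, robust quasi-likelihood, TMM scaling, filterByExpr leaving 17820 genes), and p-values were adjusted by Benjamini-Hochberg across the whole table (threshold 0.05). CPM values use the TMM-scaled library sizes, and TPM values were used for levels between genes. Single library measures were compared with two-sided exact permutation tests. The labels do not say how the tissue of single animals was handled, so p-values measure the spread between these libraries. Alternatives were DESeq2 1.42.0, limma 3.58.1 (voom on counts and trend on log2 TPM with 1 or 0.1 added), DESeq2 size factors, other filters, fewer libraries, the replicate number as a block, and an offset per library for GC content and length (a spline with 5 degrees of freedom). The scripts were tested on simulated data.

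The 10 genes, the 18 gene lists and the alternatives were chosen with earlier results of these data known. Named by rule were the 10 genes and their paralogues, and of every other list the 2 genes with the smallest p in OVX8_SCI7 against SCI7, the most abundant gene and a fixed set of defining markers; for each of the 10, also the 3 genes most like it. Promoter windows came from RefSeq on GRCm38.p6, another build than that of the counts, and no coordinates were converted.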

Additional observations from a re-analysis of the deposited data

Results flagged for a closer look

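Of the 30 combinations of the 10 genes and 3 groups, 2 held a library far from the other 3 of its group by Dixon's criterion, and chance alone marks about 1 group in 20. Ms4a7 stood at 5.12 CPM in replicate 3 of SCI7, below the 36.2 to 38.7 CPM of the other 3. The gap was 0.924 of the range. Arg1 stood at 82.1 CPM in replicate 4 of SCI7, above the 2.73 to 15.4 CPM of the other 3. The gap was 0.840 of the range. The criterion marked no other member in either library. By rank over the 12 libraries, replicate 3 was also among the 3 lowest for 6 genes beside Ms4a7. Replicate 4 was among the 3 highest for 4 genes beside Arg1.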

How the results depend on the processing

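Of 390 values of the 10 genes under other settings, 42 changed sign and 4 were called, and of 360 values without 1 library 36 changed sign and 0 were called; the cause was not tested. Members called lower in OVX8_SCI7 than in SCI7 numbered 1 with the 8 libraries alone and 1 with replicates 1 and 2 of OVX2_SCI7 left out, against 0, and members called higher in OVX2_SCI7 than in SCI7 numbered 2 with those replicates, the low ones of that group, left out, a shift that the choice of libraries fixed.

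For OVX8_SCI7 over SCI7, log2 values with another sign were -0.0344 for Mrc1 with limma-trend on log2(TPM + 1) and -0.0318 with 0.1 added. F13a1 was 0.0676 with limma-voom, 0.0066 and 0.016 on TPM with 1 and 0.1 added, 0.0345 with the GC and length offset and 0.23 with the replicate block and offset. Arg1 was 0.57, 0.54 and 0.61 with voom and on TPM, 0.58 with the replicate block and 0.69 with block and offset. With the offset, without and with the block, Il34 was -0.10 and -0.10, Azin1 0.0827 and 0.0842, and Gpr34 0.24 and 0.25.

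For OVX2_SCI7 over SCI7, Mrc1 was 0.50 with the offset, 0.44 with block and offset and 0.49 without replicates 1 and 2 of OVX2_SCI7. F13a1 was 0.13 with the offset, and Cd163 was 0.0845 with it and 0.0816 with block and offset. Without those replicates F13a1 was 0.62, Arg1 0.65, Chil3 0.10 and Cd163 0.031.

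For OVX8_SCI7 over OVX2_SCI7 without those replicates, Lyz2 was -0.61, Ms4a7 -0.63, Mrc1 -0.40 and Adgre1 -0.27. With voom, TPM + 1, TPM + 0.1, the block, and block and offset, F13a1 was 0.54, 0.56, 0.59, 0.27 and 0.27, Arg1 was 1.19, 1.11, 1.25, 0.93 and 1.04, and Plac8 was 0.49, 0.48, 0.56, 0.0063 and 0.16. Arg1 was 0.0574 with the offset alone.

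Leaving out each library in turn, OVX8_SCI7 over SCI7 ran from -0.13 to 0.31 for Mrc1, -0.58 to 0.31 for F13a1 and -0.74 to 1.11 for Arg1. OVX2_SCI7 over SCI7 ran from -0.28 to 0.20 for Mrc1, -0.72 to 0.36 for F13a1, -1.78 to 1.20 for Arg1, -0.35 to 0.0907 for Cd163 and -0.21 to 0.40 for Adgre1. OVX8_SCI7 over OVX2_SCI7 ran from -0.11 to 0.90 for Lyz2, -0.14 to 0.77 for Ms4a7, -0.087 to 0.37 for Mrc1, -0.38 to 0.45 for F13a1, -0.47 to 1.41 for Arg1, -0.77 to 0.16 for Chil3 and -0.62 to 0.24 for Plac8.

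Same-numbered libraries correlated at -0.575 to 0.445, and not every library correlated best with its own number, so the numbers were not taken to pair the samples; with the replicate block 3390 genes were called in OVX8_SCI7 against SCI7, against 4893 without it, and 10 of the 18 named calls ended. Over all genes in OVX2_SCI7 against SCI7, 1144 were called with a stricter filter, 6264 without replicate 1 of OVX2_SCI7 and 7141 without its replicates 1 and 2, against 0. In OVX8_SCI7 against SCI7 the count was 7426 with the 8 libraries alone and 0 to 6710 leaving out single libraries.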
